A study of Mus musculus with 11 samples.

Results

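Promoter windows that were positive for ISL1 only at postnatal day 9 (P9) numbered 935 of the 22332 windows listed. They were chosen by a single rule: an ISL1 value of at least 1 at P9 and of 0 at the embryonic stage E14.5. Each window runs about 3000 bases to either side of a gene start and carries 1 gene identifier, through which it was joined to regions of 2 histone marks. All data come from CUT&Tag: an antibody brings a transposase to its target, and the enzyme cuts sequencing adapters into the DNA beside it. The cells were pancreatic endocrine cells of mice, collected by sorting for tdTomato, a fluorescent reporter that becomes active where Neurod1-cre has acted. Regions and windows are given on GRCm39.

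The histone marks were measured at P9 in Isl1CKO mice (Isl1loxP/loxP;Neurod1-cre) and in Control mice (Isl1loxP/+;Neurod1-cre), with 2 libraries for each mark and genotype. All mice carried Neurod1-cre and the Ai14 tdTomato reporter on a C57BL/6 background, and littermates of both sexes were used. ISL1 itself was measured in Control cells alone, with 2 libraries at E14.5 that share a single deposited column and 1 library at P9. The Control cells had a floxed copy of Isl1 too, so the comparison is of homozygous with heterozygous loss. The Neurod1 promoter of the transgene sets which cells lose Isl1. Each histone library came from a pool of 3 to 4 pancreases and about 20000 cells, so p values measure the spread between pools. The ISL1 values at P9 have no replicate.

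ISL1 is a LIM-homeodomain transcription factor that binds DNA at short sequences with a TAAT core, often through the adaptor LDB1. It is present in endocrine cells of the pancreas from their birth, and is required for their maturation and survival. H3K27ac is an acetyl mark of active promoters and enhancers. H3K27me3 is the methyl mark that Polycomb complexes lay over the promoters of silenced developmental genes.

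To show what these windows hold, promoter sequences are given for members of 3 kinds: those with high P9 values (Mlph, Sdr9c7, Tars1), genes of islet cells (Mnx1, Ppy) and a wide H3K27me3 domain (Sema5b). Each runs from 250 bases before to 50 bases after the start, 5′ to 3′, from RefSeq on GRCm38.p6, a different build from that of the deposited files. Capitals mark TAATTG or TAATGG, searched on both strands. The coordinates are chr1:90914850-90915149, plus strand for Mlph; chr10:127898285-127898584, plus strand for Sdr9c7; chr15:11399609-11399908, minus strand for Tars1; chr5:29478421-29478720, minus strand for Mnx1. Those of Ppy are chr11:102101270-102101569, minus strand, and those of Sema5b chr16:35541112-35541411, plus strand.
Mlph: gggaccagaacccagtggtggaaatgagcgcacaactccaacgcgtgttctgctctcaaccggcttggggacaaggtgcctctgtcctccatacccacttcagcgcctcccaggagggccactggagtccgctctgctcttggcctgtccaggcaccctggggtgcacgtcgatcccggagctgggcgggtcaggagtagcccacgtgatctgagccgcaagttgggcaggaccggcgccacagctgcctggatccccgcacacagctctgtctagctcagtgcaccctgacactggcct
Sdr9c7: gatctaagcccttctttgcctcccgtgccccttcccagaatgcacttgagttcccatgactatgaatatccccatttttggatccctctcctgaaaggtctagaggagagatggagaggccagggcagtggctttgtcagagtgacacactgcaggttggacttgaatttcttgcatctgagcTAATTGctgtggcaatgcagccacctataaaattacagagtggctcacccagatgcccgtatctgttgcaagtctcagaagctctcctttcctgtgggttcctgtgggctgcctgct
Tars1: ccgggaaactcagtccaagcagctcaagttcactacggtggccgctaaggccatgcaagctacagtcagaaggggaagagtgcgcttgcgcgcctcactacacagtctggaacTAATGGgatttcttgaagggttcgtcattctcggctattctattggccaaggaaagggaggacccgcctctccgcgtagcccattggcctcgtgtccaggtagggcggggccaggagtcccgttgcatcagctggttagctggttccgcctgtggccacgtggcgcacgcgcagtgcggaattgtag
Mnx1: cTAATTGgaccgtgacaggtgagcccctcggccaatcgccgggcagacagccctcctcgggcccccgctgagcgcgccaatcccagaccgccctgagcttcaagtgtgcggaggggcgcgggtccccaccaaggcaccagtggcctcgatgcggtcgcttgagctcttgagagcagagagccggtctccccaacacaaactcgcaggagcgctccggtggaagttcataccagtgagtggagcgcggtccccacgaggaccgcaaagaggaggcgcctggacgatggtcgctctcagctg
Ppy: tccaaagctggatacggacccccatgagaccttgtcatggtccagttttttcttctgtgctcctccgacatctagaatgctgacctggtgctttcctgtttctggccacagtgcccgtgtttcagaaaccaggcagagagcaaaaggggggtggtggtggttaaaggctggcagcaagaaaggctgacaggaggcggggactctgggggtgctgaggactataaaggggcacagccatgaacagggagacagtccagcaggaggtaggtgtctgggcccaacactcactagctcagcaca
Sema5b: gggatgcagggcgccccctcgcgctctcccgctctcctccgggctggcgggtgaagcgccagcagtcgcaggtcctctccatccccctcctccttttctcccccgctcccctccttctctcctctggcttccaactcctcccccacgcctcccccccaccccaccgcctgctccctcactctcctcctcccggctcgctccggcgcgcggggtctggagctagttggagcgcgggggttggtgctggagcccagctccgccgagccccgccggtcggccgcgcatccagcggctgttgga

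Of these 6 sequences, Sdr9c7 and Mnx1 hold TAATTG and Tars1 holds TAATGG, while Mlph, Ppy and Sema5b hold neither in this stretch. Promoter sequences were matched for 584 of the 935 genes. One or both of these motifs stood in 74 of them (12.7%), against 11.3% of the 14005 promoters matched over all windows and 14.9% of the 27025 promoters in the table. TAATTG stood in 7.02% of the members, 6.05% of all windows' promoters and 8.15% of the table. TAATGG stood in 7.02%, 5.88% and 7.74% of the same sets. For each motif, the members' share lay between that of all windows and that of the table. One or both motifs stood in 7.59% of the matched promoters of windows positive at both stages and in 8.61% of those positive at E14.5 alone. For windows positive at neither stage the share was 13.7%, the nearest of these classes to the members. Of the motifs of partner and other factors that were searched on both strands, CCAAT stood in 210 of the 584 members and in 37.9% of the table. CAGATG, an E-box of the kind NEUROD1 binds, stood in 14.6% and 17.2%, and TGTTTAC, a forkhead motif, in 3.77% and 3.55%.

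The ISL1 values that chose the windows were low. Of the 935 windows, 862 (92.2%) had a P9 value of 1, 61 had 2, 5 had 3, 4 had 4, 1 had 5 and 2 had 6. They summed to 1032 of a P9 total of 2255 over all windows, while the E14.5 column summed to 16668. Just outside the rule lay 12971 windows at 0 at both stages, and 457 windows that were positive at P9 with an E14.5 value of 1. The windows positive at both stages numbered 1043, and 909 of them (87.2%) had a P9 value of 1 as well, with a highest value of 8. Windows positive at E14.5 alone numbered 7383. The column names give no unit for these values. Because a value of 1 at P9 in a single library sets membership for 92.2% of the windows, the split between P9 only and neither stage has no check on its error.

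No window overlapped another, and 823 of the 935 were exactly 6000 bases wide. The authors' file listed a single gene at 532 of them and 2 or more genes at 403, so where several are listed the gene named here need not be the nearest to the bound site. The genes with P9 only windows had a median length of 12663 bases, against 18830 for both stages, 23196 for E14.5 only and 9367 for neither stage. The share on chromosome X was 3.53%, against 3.85% of all windows.

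Histone marks stood at fewer of these promoters than at those ISL1 occupied at both stages. An H3K27ac region was listed at the promoter (within 3 kb of the start) of 317 of the 935 genes, or 33.9% (exact 95% binomial interval 30.9 to 37.0). That share was 61.3% for both stages, 63.5% for E14.5 only, 22.9% for neither stage and 38.6% over all windows. An H3K27me3 region stood at the promoter of 180 genes, or 19.3% (16.8 to 21.9), against 35.1% for both stages, 18.5% for E14.5 only, 9.09% for neither stage and 13.8% over all windows. The promoters with P9 only windows thus lay below all windows for H3K27ac and above them for H3K27me3. These shares are descriptions over genes of the same few libraries, and carry no test.

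Sorted by both marks together, 258 genes (27.6%) had H3K27ac alone at the promoter, 59 (6.31%) had both marks, 121 (12.9%) had H3K27me3 alone and 497 (53.2%) had neither. Over all windows the shares were 33.5%, 5.07%, 8.77% and 52.7%. At windows positive at both stages 18.3% had neither mark, and at windows positive at neither stage 70.5% did. The deposited files list regions with a sum of at least 50 counts over the 4 libraries, so a promoter without a listed region may still carry some signal. At 49 windows an H3K27ac region overlapped the window without being a promoter region of its gene, and at 16 windows an H3K27me3 region did.

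**Figure D1:**
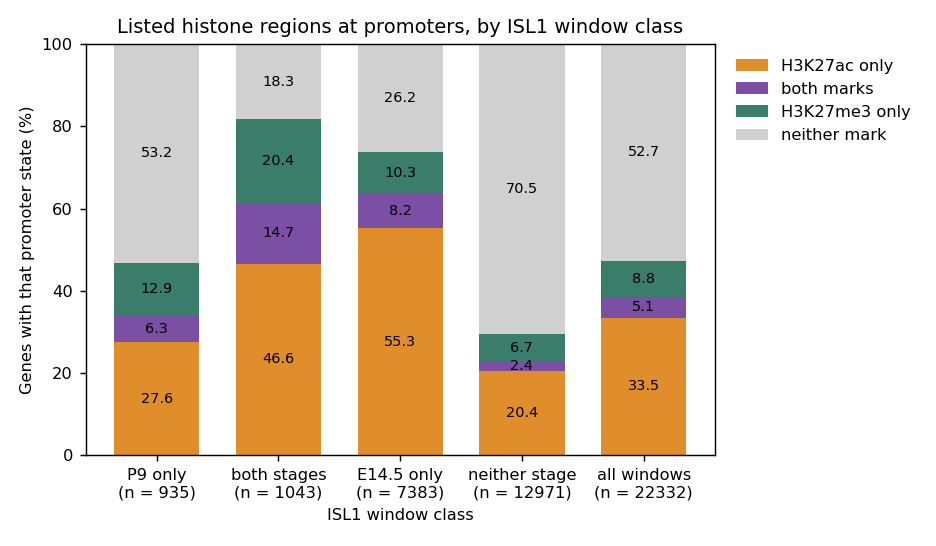
Stacked bars give the percentage of genes (y axis) in each ISL1 window class (x axis) whose promoter has a listed region of H3K27ac alone, both marks, H3K27me3 alone or neither. The P9 only bar has 53.2% with neither mark, against 18.3% for windows positive at both stages, 26.2% for E14.5 only, 70.5% for neither stage and 52.7% for all windows.

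Windows with a higher P9 value carried H3K27me3 more often. Among the 73 windows with a value of 2 or more, 27 (37.0%) had H3K27me3 at the promoter, against 153 of 862 (17.7%) with a value of 1. H3K27ac stood at 27 of those 73 (37.0%) and at 33.6% of those with a value of 1. The share with neither mark was 35.6% at values of 2 or more and 54.6% at a value of 1. At windows positive at both stages the same order was seen for H3K27me3, with 46.3% of 134 windows at values of 2 or more and 33.4% of 909 at a value of 1.

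Among the unmarked members were sensory receptor genes and predicted genes. Olfactory receptor genes, which encode odorant receptors of the nose, numbered 47 (5.03% of the members, against 5.14% of all windows). None of the 47 had H3K27ac at the promoter, and 1 had H3K27me3. Among windows positive at both stages olfactory receptors made up 0.288%, and among those positive at neither stage 8.01%. The members' share thus stood near that of all windows and well above that of both stages. Vomeronasal and taste receptor genes added 12 members (1.28%, against 1.79% of all windows), and none of the 12 had a mark. Predicted genes with Gm numbers made up 123 members (13.2%, against 13.5% of all windows and 1.73% of both stages), and 113 of those 123 had neither mark. Reads that fit several copies of such families can be placed at any of them, and how the authors treated such reads is not given in the sources used here, so the values of these windows are uncertain.

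Other gene families differed in their marks, with few members each. The 4 potassium channel genes among the members (0.428%, against 0.416% of all windows), named after their values were seen, Kcna3, Kcnk12, Kcnma1 and Kcnt1, each had H3K27me3 at the promoter, and Kcnk12 and Kcnt1 had H3K27ac as well. Solute carriers, which move small molecules across membranes, numbered 13 (1.39%, against 1.55% of all windows), of which 2 had neither mark. Keratins and their associated proteins numbered 8, of which 6 had neither mark, and cytochrome P450 enzymes 5, of which 4 had neither. Clones with Rik names numbered 21, of which 17 had neither mark. Zinc finger genes numbered 8 (0.856%, against 1.94% of all windows). No Hox gene was among the members. Hox genes had only 29 windows in all (0.130% of all windows, and 0.863% of those positive at both stages), so their absence is no result about the members.

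Of the islet genes on 6 lists, 8 of 93 with a window were members (8.60%, against 4.19% of all windows). Over all 19 gene lists the share was 6.07%. At windows positive at both stages stood 12.9% of these islet genes, against 4.67% of all windows, so a raised share was not particular to P9 only. Of 22 islet transcription factors 2 were members, Mnx1 and St18, against 8 at windows positive at both stages and 12 at E14.5 only. Mnx1 is a homeobox factor of beta cell identity, and St18 a zinc finger factor of the Myt family. The 9 genes of delta, PP and epsilon cells gave 2 members: Ppy, the hormone pancreatic polypeptide, and Ghrl, the hormone ghrelin. Of 19 beta cell genes with a window, Npas4, an activity-induced transcription factor, was the only member, and of 13 alpha cell genes Pou3f4, a POU homeobox factor of alpha cells, was. The endocrine progenitor list gave Gadd45a, a DNA damage response gene, and the secretion list gave Pcsk1n, an inhibitor of the prohormone convertase PCSK1.

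The other lists gave 0 to 2 members each. Polycomb-regulated developmental genes gave Gsc and Lhx2, both homeobox genes, of 24. The proteasome gave Psma3 and Psmc1, the ribosome Rpl10, the respiratory chain Ndufv1 and the cell cycle Top2a, the DNA topoisomerase of dividing cells. The 6 lists of other cell types, glia and neurons included, gave 2 members of 61 (3.28%): Krt7, a keratin of ducts, and Prph, an intermediate filament of peripheral neurons. No member came from the lists of beta-disallowed, ER stress, acinar, endothelial, mesenchymal or immune genes. The window of Isl1 itself was not a member, with an E14.5 value of 9 and a P9 value of 0 (chr13:116443226-116449225).

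The 10 named windows with the highest P9 values had mixed promoters. Mlph, which encodes melanophilin, a linker of RAB27A to myosin, had a value of 6 (chr1:90839808-90845807) and both marks at its promoter. Ct47 (chrX:35661934-35667933) also had 6 and neither mark. Sfrp5, a secreted Wnt inhibitor, had 4 (chr19:42187692-42193691) with both marks. Sdr9c7, a short-chain dehydrogenase of skin, had 4 (chr10:127731388-127737387) with H3K27ac alone. Gucy2c, the guanylin receptor of the gut, and the pseudogene Mup-ps2 had 4 with neither mark. At a value of 3 stood Fmc1, a mitochondrial assembly factor, and Tars1, the threonyl-tRNA synthetase, both with H3K27ac alone. Bcl2, the inhibitor of apoptosis, also had 3, with both marks, and Cap2, an actin regulator, had 3 with H3K27me3 alone. Ct47 and Mup-ps2 belong to families of near-identical copies, so their values are uncertain.

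The histone libraries differed in depth. For H3K27ac they held 681047 and 1441926 counts in regions in Isl1CKO cells and 1307049 and 1815511 in Control cells. For H3K27me3 they held 2276887 and 2260039 in Isl1CKO cells and 1202276 and 1750706 in Control cells. For H3K27ac, Control replicate 2 was unlike the other libraries, with correlations of 0.388 to 0.435 with them across regions, against up to 0.751 among the others. Isl1, the deleted gene, had 30 and 65 H3K27ac counts at its promoter in Isl1CKO cells and 82 and 78 in Control cells, or 45.7 ± 0.0241 and 53.0 ± 14.53 CPM (counts scaled to depth by TMM factors; SD, n = 2 each). Which exon is removed is not stated, so this does not check the deletion. As to the label of endocrine cells, H3K27ac promoter regions were listed for 16 of 20 beta cell genes and 9 of 13 alpha cell genes, while the hormone genes Ins2, Gcg and Sst had no listed H3K27ac region. For other cell types they were listed at 1 of 12 acinar, 6 of 10 ductal, 1 of 10 endothelial, 1 of 10 mesenchymal and 2 of 10 immune genes. The summed promoter H3K27ac of the beta cell genes was 835 and 603 CPM in Isl1CKO libraries and 1054 and 1063 CPM in Control libraries. For the delta, PP and epsilon cell genes, which include Ppy and Ghrl, it was 173.4 and 169.4 CPM in Isl1CKO libraries and 272 and 221 CPM in Control libraries. The alpha cell genes overlapped, at 400.1 and 266 CPM in Isl1CKO libraries and 346 and 184 CPM in Control libraries. Sums over islet transcription factors and over secretion genes overlapped as well. Endocrine progenitor genes had 341 and 287 CPM in Isl1CKO libraries and 343 and 420 CPM in Control libraries. The endothelial sum rested on 1 gene, with 56.9 to 68.5 CPM in Isl1CKO libraries and 17.0 to 40.9 CPM in Control libraries. The immune sum rested on 2 genes, with 12.2 to 19.0 CPM in Isl1CKO libraries and 13.9 to 26.9 CPM in Control libraries, which overlapped. Acinar, ductal, mesenchymal, and glia and neuron sums also overlapped between the genotypes. The part of such cells in the genotype results was not tested.

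No H3K27ac region of the genes with P9 only windows passed the test between the genotypes. The 935 genes had 720 H3K27ac regions, next to 380 of them, and 687 passed the filter on low counts. The edgeR quasi-likelihood test called 0 of the 687, and 0% of all 30036 regions tested, at an adjusted p below 0.05. The smallest adjusted p among them was 0.838. Without Control replicate 1 the test called 29 of them, and 3% of all regions, with the library least like the others as the only Control. Among the 29 were regions at Mnx1, Snx9, Card9, Pnpla5, Ace and Edn2. At an unadjusted p below 0.05 there were 16 higher and 24 lower in Isl1CKO cells, where 2.71% of all regions were higher and 3.12% lower. The member regions took 2.07% and 2.13% of the counts in the Isl1CKO libraries and 2.09% and 2.15% in the Control libraries. In these bulk samples, fewer cells that carry a mark and less of it per cell cannot be told apart.

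With the strongest promoter region taken for each gene, 313 of 317 were tested. The log2 fold change, Isl1CKO over Control, had a median of 0.04, against 0.07 over the promoters of all genes. Of the 313, 150 measured lower in Isl1CKO cells and the rest higher, where 45.2% of all promoters measured lower and 54.8% higher. The 2 Isl1CKO libraries were above both Control libraries at 63 of them (20.8% over all promoters) and below at 52 (16.3% over all promoters). Both counts are near these background shares, so they are no result about the members. The promoter regions were 1207 bases wide at the median, against 1288 over all genes.

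Among islet genes, Mnx1 showed the widest gap in H3K27ac. Its promoter region (chr5:29682788-29683958) held 5 and 14 counts in Isl1CKO cells and 16 and 139 in Control cells, or 7.61 and 9.84 CPM in Isl1CKO cells and 12.4 and 76.2 CPM in Control cells. The Isl1CKO libraries were below both Control values, but most of the gap came from Control replicate 2, the library least like the others. This region reached the 50 counts needed for listing through the Control libraries alone, so a lower Isl1CKO level is tied to the listing. The log2 fold change was -2.32 (SE 0.82, edgeR adjusted p = 0.846), -0.48 when Control replicate 2 was left out and -3.08 when Control replicate 1 was. Ppy measured 3.04 and 17.6 CPM in Isl1CKO cells and 16.2 and 35.1 CPM in Control cells at its promoter (chr11:101992382-101993226), and the libraries of the genotypes overlapped. Ghrl measured 22.8 and 14.8 CPM in Isl1CKO cells against 17.0 and 8.77 CPM in Control cells, again with overlap. Npas4 measured 36.5 and 23.2 CPM in Isl1CKO cells and 39.4 and 31.8 CPM in Control cells, and these overlapped as well. Pou3f4 measured 22.8 and 2.11 CPM in Isl1CKO cells and 26.2 and 9.32 CPM in Control cells, and Pcsk1n 15.2 and 21.8 CPM in Isl1CKO cells against 23.9 and 9.87 CPM in Control cells. St18 had no promoter region of either mark, and Gadd45a had none either.

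**Figure D2:**
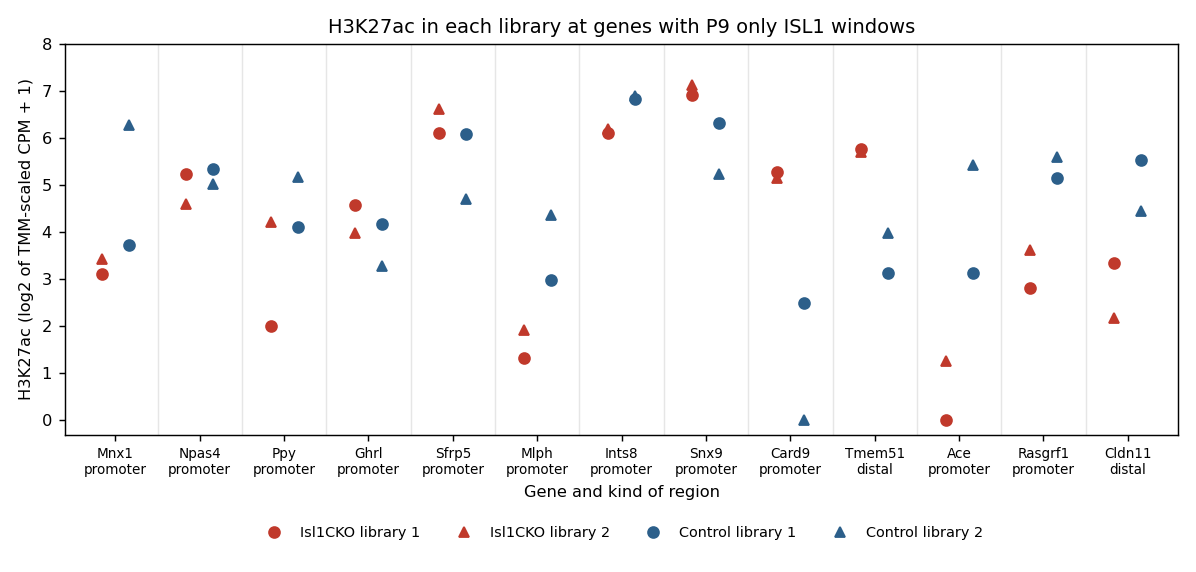
Each point is H3K27ac in 1 library, as log2 of TMM-scaled CPM plus 1 (y axis), at a region of the gene named on the x axis, with the Isl1CKO libraries left of the Control libraries. The Isl1CKO libraries lie below both Control libraries at Mnx1, Mlph, Ints8, Ace, Rasgrf1 and Cldn11, above them at Sfrp5, Snx9, Card9 and Tmem51, and among them at Npas4, Ppy and Ghrl.

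The windows with the highest P9 values showed both directions. At Mlph, the promoter region (chr1:90842525-90842845) held 1 and 4 counts in Isl1CKO cells and 9 and 36 in Control cells, too few to pass the filter. At Sfrp5 (chr19:42189464-42191397), the level was 68.5 and 97.0 CPM in Isl1CKO cells and 67.2 and 25.2 CPM in Control cells, with 1 Control library close to the Isl1CKO libraries. Sdr9c7 measured 4.56 and 8.43 CPM in Isl1CKO cells and 17.0 and 23.6 CPM in Control cells at its promoter region (chr10:127735848-127736535). Its groups did not overlap, and the log2 fold change was -1.59 (SE 0.95, edgeR adjusted p = 0.889). The Sdr9c7 region reached the 50 counts needed for listing through the Control libraries alone. Fmc1 measured 111 and 75.2 CPM in Isl1CKO cells and 60.2 and 52.1 CPM in Control cells (chr6:38511198-38512679), a log2 fold change of 0.72 (SE 0.40, edgeR adjusted p = 0.875). Bcl2 measured 38.0 and 16.9 CPM in Isl1CKO cells against 16.2 and 13.7 CPM in Control cells, and Tars1 19.8 and 15.5 CPM in Isl1CKO cells against 20.1 and 6.03 CPM in Control cells.

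The 5 regions with the smallest unadjusted p and higher H3K27ac in both Isl1CKO libraries were at Card9, Tmem51, Snx9, Fgl2 and Pnpla5. Card9, an adaptor of innate immune signalling, held 25 and 49 counts in Isl1CKO cells and 6 and 0 in Control cells at a promoter region (chr2:26249085-26250755). The log2 fold change was 4.04 (SE 1.08, edgeR adjusted p = 0.838), and 2.93 without Control replicate 2. Its other promoter region (chr2:26246673-26248076) measured 25.9 and 27.4 CPM in Isl1CKO cells and 31.6 and 8.22 CPM in Control cells, with overlap. The window is shared with Snapc4 and a predicted gene. Tmem51, a membrane protein gene, measured 53.3 and 51.3 CPM in Isl1CKO cells and 7.72 and 14.8 CPM in Control cells at an upstream region, at -10754 bases from its start (chr4:141822369-141823555). The fold change was 2.19 on the log2 scale (SE 0.63, edgeR adjusted p = 0.838). Snx9, a sorting nexin of endocytosis, measured 120 and 139 CPM in Isl1CKO cells and 79.5 and 36.7 CPM in Control cells at its promoter (chr17:5890875-5892377), a log2 fold change of 1.17 (SE 0.41, edgeR adjusted p = 0.846). Leaving out Control replicate 2 gave 0.71, and leaving out Control replicate 1 gave 1.82. Fgl2, which shares its window with Ccdc146, measured 24.3 and 23.9 CPM in Isl1CKO cells against 4.63 and 2.19 CPM in Control cells at an exon -41683 bases away. The Fgl2 promoter region measured 24.3 and 29.5 CPM in Isl1CKO cells and 26.2 and 37.3 CPM in Control cells, with overlap. Pnpla5 measured 15.2 and 29.5 CPM in Isl1CKO cells against 3.86 and 0 CPM in Control cells. These 5 were chosen for groups that do not overlap, and none passed the test. Of the 5, those at Card9, Tmem51, Fgl2 and Pnpla5 reached the 50 counts needed for listing through the Isl1CKO libraries alone. For them a higher Isl1CKO level is thus tied to the listing.

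The 5 regions with the smallest unadjusted p and lower H3K27ac in both Isl1CKO libraries were at Ace, Edn2, Cldn11 and Rasgrf1, which had 2 of them. Ace, the angiotensin converting enzyme, held 0 and 2 counts in Isl1CKO cells and 10 and 77 in Control cells at its promoter (chr11:105858714-105859651). Most of the Control counts lay in replicate 2. Rasgrf1, an imprinted exchange factor for RAS, measured 6.09 and 11.2 CPM in Isl1CKO cells and 34.7 and 47.7 CPM in Control cells at its promoter (chr9:89791037-89792634). The Control libraries were alike here, and the log2 fold change was -2.18 (SE 0.70, edgeR adjusted p = 0.846). An intron region of Rasgrf1 (chr9:89800112-89800670) held 0 and 1 counts in Isl1CKO cells and 12 and 42 in Control cells. Another promoter region of the gene (chr9:89792675-89793482) measured 10.7 and 13.4 CPM in Isl1CKO cells and 10.8 and 20.8 CPM in Control cells, with overlap. Edn2, the peptide endothelin 2, held 1 and 0 counts in Isl1CKO cells and 15 and 60 in Control cells at a distal region (chr4:120061358-120062024). The Edn2 promoter region measured 10.7 and 16.2 CPM in Isl1CKO cells and 12.4 and 21.4 CPM in Control cells, with overlap. Cldn11, a tight junction claudin, measured 9.13 and 3.51 CPM in Isl1CKO cells and 45.5 and 20.8 CPM in Control cells at an upstream region (chr3:31187712-31189050), a log2 fold change of -2.47 (SE 0.85, edgeR adjusted p = 0.846) that ran from -3.20 to -1.80 as single libraries were left out. Each of the 5 regions chosen by p, the Rasgrf1 promoter region included, reached the 50 counts needed for listing through the Control libraries alone. At these regions a lower Isl1CKO level is thus tied to the listing.

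The members with the highest Control H3K27ac per kilobase were Ints8, Ssh3, Abhd16a and Afg1l. Ints8, a subunit of the Integrator complex, measured 68.5 and 71.7 CPM in Isl1CKO cells and 113 and 118 CPM in Control cells at its promoter (chr4:11253280-11254621). The libraries of each genotype were close together and the groups apart, with a log2 fold change of -0.72 (SE 0.36, edgeR adjusted p = 0.865). Ssh3, a cofilin phosphatase, measured 135 and 118 CPM in Isl1CKO cells and 84.9 and 85.0 CPM in Control cells, and shares its window with Ankrd13d. Abhd16a, a lipase, measured 94.3 and 94.9 CPM in Isl1CKO cells and 78.0 and 72.9 CPM in Control cells, and Afg1l, a mitochondrial ATPase, 82.2 and 65.4 CPM in Isl1CKO cells against 81.0 and 82.8 CPM in Control cells.

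H3K27me3 at the P9 only windows measured slightly lower in Isl1CKO cells at most promoters, and no region passed the test. The genes had 534 H3K27me3 regions, next to 230 of them, and 522 passed the filter. The edgeR test called 0 of the 522, and 0% of all 19434 regions tested, with a smallest adjusted p of 0.835. At an unadjusted p below 0.05 there were 4 higher and 18 lower, where 1.35% of all regions were higher and 2.98% lower. At the strongest promoter region of each gene, 178 of 180 were tested, of which 53 measured higher (38.3% over all promoters) and 125 lower (70.2%, against 61.7% over all promoters). The median log2 fold change was -0.25, against -0.14 over all promoters. The 2 Isl1CKO libraries were below both Control libraries at 62 (34.8%, against 27% over all promoters) and above at 16 (11.1% over all promoters). By window class, 74.0% measured lower for both stages, 68.9% for E14.5 only and 55.9% for neither stage. The median log2 fold changes of these classes were -0.21, -0.20 and -0.09. The share of members that measured lower thus lay between those of both stages and E14.5 only. The member regions took 3.21% and 3.22% of the counts in the Isl1CKO libraries and 3.37% and 3.40% in the Control libraries.

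The promoter regions with H3K27me3 had a median width of 3331 bases, against 5018 for windows positive at both stages, 3342 for E14.5 only, 2028 for neither stage and 2470 over all promoters. Of the members, 48 of the tested ones reached 5000 bases or more. At those 48 the median log2 fold change was -0.28, against -0.18 over the 1108 tested promoters of that width. Of the 48, 35 (72.9%) measured lower, against 78.2%. At the 130 below 5000 bases the median was -0.23, against -0.11 over 3764, and 69.2% measured lower, against 56.9%. The share measured lower was thus above that of all promoters at the narrower regions and below it at the wider ones. With the P9 value of 2 or more, 20 of 27 tested promoters (74.1%) measured lower, and with a value of 1 105 of 151 (69.5%) did.

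**Figure D3:**
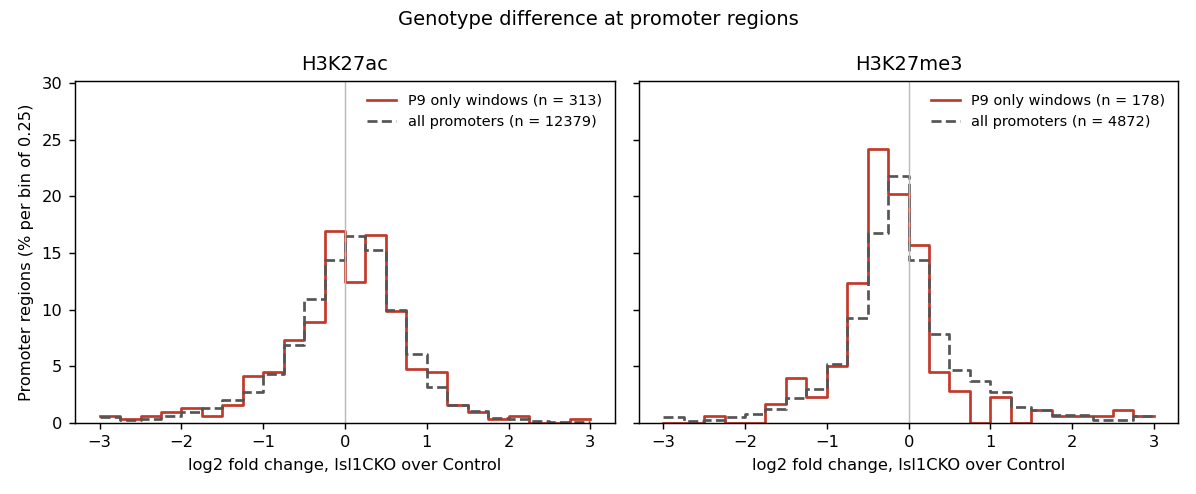
Lines give the percentage of promoter regions (y axis) in each bin of 0.25 of log2 fold change, Isl1CKO over Control (x axis), for genes with P9 only windows and for all promoters tested; values beyond 3 on either side are in the last bins. For H3K27ac the medians are 0.04 and 0.07, and for H3K27me3 they are -0.25 and -0.14.

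The lowest p among H3K27me3 promoters was at Sema5b, an axon guidance semaphorin. Its domain of 13331 bases (chr16:35354862-35368192) measured 569 and 516 CPM in Isl1CKO cells and 996 and 916 CPM in Control cells. The log2 fold change was -0.82 (SE 0.14, edgeR adjusted p = 0.835), and the libraries of each genotype lay close together. Egr2, a zinc finger factor of Schwann cells and hindbrain, measured 201 and 183 CPM in Isl1CKO cells and 310 and 341 CPM in Control cells over a region within 3 kb of its start (chr10:67373671-67377425), a log2 fold change of -0.76 (SE 0.21). Aqp2, the water channel of kidney collecting ducts, had the widest promoter region of the members, at 22773 bases (chr15:99473965-99496737). It held 2877 and 2823 counts in Isl1CKO cells and 1746 and 2572 in Control cells, or 1215 ± 20.8 and 1525 ± 19.7 CPM (SD, n = 2 each), a log2 fold change of -0.33 (SE 0.11). Osr2, a zinc finger factor of limb and palate, measured 980 and 808 CPM in Isl1CKO cells and 1185 and 1149 CPM in Control cells (chr15:35290756-35305881), a log2 fold change of -0.38 (SE 0.13). These 4 were chosen for groups that do not overlap, and the edgeR adjusted p was 1 for Egr2, Aqp2 and Osr2.

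The members Phox2a, Shisa8, Prph, Gsc and Lhx2, named for a high Control level or from the gene lists, also measured lower in Isl1CKO cells. None of them passed the test. Their promoter regions were all wider than 5000 bases, and 78.2% of all tested promoters of at least that width measured lower. Phox2a and Shisa8 were picked by their Control level, which itself favours a lower Isl1CKO value. Phox2a, a homeobox factor of autonomic neurons and the most densely marked member per kilobase, measured 539 and 533 CPM in Isl1CKO cells and 654 and 643 CPM in Control cells (chr7:101465032-101471756), a log2 fold change of -0.27 (SE 0.15). Shisa8, which encodes a regulator of glutamate receptors, measured 749 and 787 CPM in Isl1CKO cells and 970 and 974 CPM in Control cells, a log2 fold change of -0.34 (SE 0.13). Prph measured 379 and 412 CPM in Isl1CKO cells and 614 and 482 CPM in Control cells, a log2 fold change of -0.47 (SE 0.18). Gsc measured 638 and 678 CPM in Isl1CKO cells against 738 and 786 CPM in Control cells, and Lhx2 331 and 448 CPM in Isl1CKO cells against 479 and 516 CPM in Control cells. The edgeR adjusted p was 1 for each of these genes.

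Of the islet genes, Mnx1 and Npas4 had wide H3K27me3 domains beside their H3K27ac. The Mnx1 domain of 10564 bases (chr5:29676150-29686713) measured 288 and 282 CPM in Isl1CKO cells and 366 and 396 CPM in Control cells. Its log2 fold change was -0.42 (SE 0.19, edgeR adjusted p = 1). Both marks thus measured lower at Mnx1 in Isl1CKO cells, without passing the test. The Npas4 domain of 7934 bases (chr19:5032581-5040514) measured 223 and 252 CPM in Isl1CKO cells and 407 and 303 CPM in Control cells, a log2 fold change of -0.58 (SE 0.22, edgeR adjusted p = 1). Pou3f4 held 49 and 12 counts in Isl1CKO cells and 22 and 48 in Control cells, with overlap. Pcsk1n went the other way, with 55 and 1 counts in Isl1CKO cells and 7 and 0 in Control cells (chrX:7788425-7788917). Its libraries overlapped as well, and the log2 fold change was 2.00 (SE 1.90), without passing the test. No H3K27me3 region was listed for Ppy, Ghrl, St18 or Gadd45a.

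**Figure D4:**
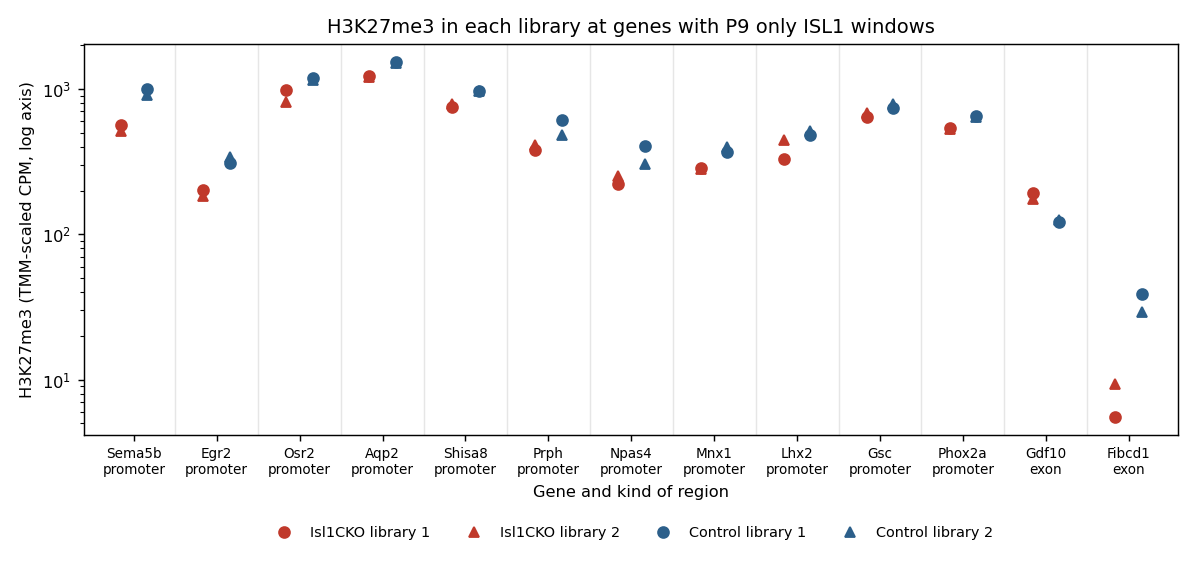
Each point is H3K27me3 in 1 library, in TMM-scaled CPM on a log axis (y axis), at a region of the gene named on the x axis, with the Isl1CKO libraries left of the Control libraries. The Isl1CKO libraries lie below both Control libraries in every gene shown except Gdf10, where they lie above. The regions were picked, several of them because their groups do not overlap, and named members whose libraries overlap are not drawn. Of the 178 tested member promoters, 62 (34.8%) had both Isl1CKO libraries below both Control libraries, against 27% over all promoters.

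The 5 regions with the smallest unadjusted p and higher H3K27me3 in both Isl1CKO libraries were at Edar, Or52k2, Arf2, Gdf10 and Csf2rb2. Gdf10, a growth factor of the TGF-beta family, held 453 and 412 counts in Isl1CKO cells and 139 and 213 in Control cells, or a mean of 184 and 124 CPM, over an exon region of 4981 bases (chr14:33650045-33655025), a log2 fold change of 0.57 (SE 0.27, edgeR adjusted p = 1). Its promoter regions overlapped between the genotypes, with 333 and 265 CPM in Isl1CKO cells and 344 and 299 CPM in Control cells at the nearer, and 147 and 114 CPM in Isl1CKO cells and 90.8 and 115 CPM in Control cells at the other (chr14:33638704-33644128). Edar, a receptor of skin appendage development, held 15 and 46 counts in Isl1CKO cells and 0 and 2 in Control cells at an intron region (chr10:58500871-58501643). The Edar promoter region measured 45.7 and 27.6 CPM in Isl1CKO cells and 41.4 and 35.2 CPM in Control cells, with overlap. Csf2rb2, a cytokine receptor subunit, held 39 and 19 counts in Isl1CKO cells against 2 and 1 in Control cells (chr15:78197543-78198676). Or52k2, an olfactory receptor and the 1 such member with the mark, held 32 and 44 counts in Isl1CKO cells against 0 and 5 in Control cells, and Arf2, a small GTPase, 41 and 86 in Isl1CKO cells against 11 and 8 in Control cells at a region 53737 bases away. Csf2rb2 and Or52k2 have close paralogs, so their counts are uncertain. The intron region of Edar and the regions of Csf2rb2, Or52k2 and Arf2 reached the 50 counts needed for listing through the Isl1CKO libraries alone. In the other direction, Fibcd1, a chitin-binding receptor, measured 5.55 and 9.35 CPM in Isl1CKO cells and 38.8 and 29.4 CPM in Control cells at an exon (chr2:31727790-31729325), a log2 fold change of -2.18 (SE 0.77, edgeR adjusted p = 1). That exon region reached the 50 counts needed for listing through the Control libraries alone. The promoter domain of Fibcd1 measured 284 and 270 CPM in Isl1CKO cells and 393 and 329 CPM in Control cells.

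The authors' deposited table called many more regions. It differs in several ways at once, with a likelihood ratio test, regions under the filter used here and a scaling that is not given in the sources used here. For H3K27ac it called 201 of the 720 member regions higher and 70 lower (27.8% and 9.25% of all regions), with a median promoter log2 fold change of 0.57 for the members and 0.61 for all. For H3K27me3 it called 43 of the 534 higher and 195 lower (9.17% and 29.6% of all regions), with medians of -0.80 and -0.68. The median over all regions in that table was 0.46 for H3K27ac and -0.45 for H3K27me3, against -0.03 and 0.05 here. Of the member regions to which DESeq2 gave an adjusted p, it called 1 of 653 for H3K27ac, at Card9 (0.102% of the 28427 regions with an adjusted p). For H3K27me3 it called 6 of 75, at Aqp2, Egr2, Hrk, Osr2, Sema5b and Shisa8, each of them lower (8.24% of the 1784 regions with an adjusted p). Over all regions it called 147, of which 145 were lower and 2 higher, so the direction is not particular to the members. Its own filter on mean counts left the other H3K27me3 regions without an adjusted p. Hrk, an activator of apoptosis, was named after its value was seen.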

How the data were processed

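CUT&Tag regions of H3K27ac and H3K27me3 came from 2 Isl1CKO and 2 Control libraries a mark, and ISL1 values from Control cells at E14.5 and P9, with groups taken from the labels. Per the submitters' processing notes, the tools were MACS2 2.2.6, Bowtie2 2.3.5.1, edgeR 4.0.16, Picard 2.27.4 and ChIPseeker 1.38.0, with build GRCm39; settings are not given in the sources used here. The authors deposited raw counts per region. Beside them the authors' tables give a log2 fold change and log2 abundance, a likelihood ratio score, and a p-value with its adjusted form. The deposited ISL1 values are a score in whole numbers per window, of unstated unit. Columns left unused: 0.

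Chromosome labels of the histone tables followed the alphabetical order of names. As written, 7.48% (H3K27ac) and 9.25% (H3K27me3) matched the window file by gene, and 100% matched after relabelling; printed coordinates are relabelled.

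Repeated rows (108 and 90) were removed. Regions were filtered with filterByExpr, scaled by TMM factors and compared by the quasi-likelihood test of edgeR 4.0.16 in R 4.3.3, with Benjamini-Hochberg adjustment across every region tested for the mark. CPM are over counts in tested regions. Fold changes are Isl1CKO over Control. A count of 0 in 1 library allows a level of 3 counts, which is 1.64 to 4.56 CPM in the H3K27ac libraries and 1.28 to 2.64 CPM in those of H3K27me3. These limits and all intervals take in counting error alone. DESeq2 1.42.0 and other settings were alternatives; the authors' table was added as one after the data had been seen. Promoters were matched by identifier or symbol to RefSeq; with 62.5% of members matched, no comparison of base composition was made.

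Named genes were the 10 highest P9 values; per mark and direction, the 5 regions with the smallest p whose groups did not overlap; the 4 highest Control levels per kilobase in the window; and up to 3 members of each of 19 gene lists. Genes with only a number for a name were counted, not named. The members, lists and this rule were chosen with earlier results of these data known.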

Additional observations from a re-analysis of the deposited data

How the results depend on the processing

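With H3K27ac, the count of called member regions was 0 with library totals, without the low-count filter, with overlap in place of the gene join and at P9 values of 2 or more. DESeq2 called 1, and 271 were called in the authors' deposited table. Leaving out 1 library gave 0 to 29: the 29 (22 higher, 7 lower) came without Control replicate 1, when 3% of all regions were called and the library least like the others was the only Control. The median promoter log2 fold change, 0.04, was 0.57 in the authors' table and 0.28 at P9 values of 2 or more, and ran from -0.0401 to 0.157 without 1 library. The share of genes with an H3K27ac promoter region, 33.9%, was 39.1% by overlap with the window and 40.6% for any region of the gene.

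With H3K27me3, DESeq2 called 6, and 238 were called in the authors' table, while leaving out any library gave 0. The median, -0.25, was -0.13 with library totals, -0.80 in the authors' table and -0.35 at P9 values of 2 or more, and ran from -0.30 to -0.25 without 1 library. The share with an H3K27me3 promoter region, 19.3%, was 37.0% at P9 values of 2 or more and 24.6% for any region. Windows with a P9 value of 2 or more numbered 73. The causes were not tested.

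Whether same-numbered libraries were paired could not be decided, because each genotype gives a single difference between its replicates. The correlation of these differences over regions was 0.0504 for H3K27ac and -0.0142 for H3K27me3. With a replicate block the counts stayed 0 and 0, and the medians were 0.03 and -0.26. For 31 named regions, 233 values under these settings kept their direction and side of the threshold, 40 passed it (in the authors' table, with DESeq2 or without Control replicate 1), and none reversed. DESeq2 gave no adjusted p at 6 of these regions, which are not counted. At all 31 regions the groups did not overlap, so leaving out 1 library could hardly reverse a direction. The absence of reversals is thus no check on them. Regions with overlapping groups, such as Npas4 for H3K27ac and Pcsk1n for H3K27me3, were not among the 31. Mnx1 H3K27ac had a log2 fold change of -0.48 without Control replicate 2, against -2.32 with it. Leaving out genes that also have a window positive at E14.5 gave no value, because each gene has 1 window.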
